A study of Mus musculus with 10 samples.

Results

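Small nucleolar RNAs (snoRNAs), the related Cajal body RNAs and the host genes named after them were examined in 3 populations of cultured mouse T helper cells. Members were all genes whose symbol starts with Snord, Snora, Scarna or Snhg followed by a digit, plus Gas5. A gene was measured where at least 1 probe set of the array named it alone, and of several such probe sets the one with the highest mean was taken. This gave 93 members among 22180 measured genes: 47 box C/D snoRNAs (Snord), 26 H/ACA snoRNAs (Snora), 5 small Cajal body RNAs (Scarna) and 15 host genes (Snhg). A further 33 genes with such names, Gas5, Snhg8 and Snhg16 among them, stood only on probe sets that name several genes and were not analysed here.

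The 10 arrays held 3 Th0, 3 Th2 and 4 Th17 samples of wild-type CD4-positive spleen lymphocytes from female BALB/c mice aged 10 to 14 weeks. Every culture was stimulated through CD3 (antibody at 4 µg/ml) and through CD28 (antibody at 30 ng/ml), and the medium was renewed after 72 h. Th0 cultures, the control, received nothing more. Th2 cultures also received IL-4 (100 ng/ml), and Th17 cultures received IL-6 (20 ng/ml), TGFβ (5 ng/ml) and IL-23 (10 ng/ml). Both polarised groups, but not Th0, received an antibody against IFNγ (10 µg/ml), so in a comparison with Th0 the effect of this antibody and that of the cytokines cannot be told apart. The populations were bulk cultures, in which fewer cells of a type and less RNA per cell cannot be told apart either.

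Box C/D snoRNAs guide the methylation of riboses in ribosomal RNA, H/ACA snoRNAs guide the conversion of uridine to pseudouridine, and small Cajal body RNAs (scaRNAs) guide the same modifications in spliceosomal RNAs. In mammals most of them are cut out of introns of host genes, many of which encode ribosomal proteins or nucleolar factors. The Snhg genes are hosts whose spliced RNA is mostly noncoding. Many hosts begin transcription at a C followed by a run of pyrimidines, the terminal oligopyrimidine start also found in ribosomal protein genes.

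The starts of 5 host genes are shown because this stretch is what hosts are known to share with ribosomal protein genes. Sequences are from RefSeq on build GRCm38.p6, 5′ to 3′ on the transcribed strand, and capitals mark a C followed by at least 4 further C or T within 10 bases of the start. Snhg12 lies at chr4:132308653-132308712 on the plus strand, and Snhg7 at chr2:26640210-26640269, Snhg3 at chr4:132353652-132353711 and Snhg15 at chr11:6528726-6528785 on the minus strand. Snhg1 lies at chr19:8723462-8723521 on the plus strand.
Snhg12: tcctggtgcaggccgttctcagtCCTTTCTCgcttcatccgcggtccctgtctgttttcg
Snhg7: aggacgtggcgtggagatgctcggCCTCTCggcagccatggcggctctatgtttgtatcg
Snhg3: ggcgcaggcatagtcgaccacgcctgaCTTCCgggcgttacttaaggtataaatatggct
Snhg15: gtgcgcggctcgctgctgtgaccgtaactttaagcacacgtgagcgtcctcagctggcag
Snhg1: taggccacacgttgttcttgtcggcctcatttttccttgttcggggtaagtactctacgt

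Such a run was found in 7 of 14 RefSeq windows of measured host genes (50%), which belong to 13 genes. No window of the measured hosts Snhg4 and Snhg6 was counted. It was found in 42 of 76 windows of ribosomal protein genes (55.3%) and in 10093 of all 32851 windows of the same length (30.7%). Only the transcribed strand was searched, and neither Snhg15 nor Snhg1 held a run in this window. A match is a match of letters only.

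Values were RMA log2 values, so 1 unit is a 2-fold difference on the array's scale. T cell identity markers had mean levels of 8.56 to 9.53 on the 10 arrays. Markers of basophils and mast cells, counted over 9 genes, averaged 3.29 to 4.27 on the Th2 arrays but 3.43 to 7.07 on the Th0 arrays and 3.41 to 5.99 on the Th17 arrays, with the highest values on Th0 replicate 1 and Th17 replicates 2 and 3. The first principal component of all genes, with 35.8% of the variance, set Th2 replicates 2 and 3 and Th17 replicate 4 apart from the other 7 arrays. T cell identity markers were lowest on the same arrays: their median deviation from each gene's own mean was -0.44 and -0.34 on Th2 replicates 2 and 3, -0.47 on Th17 replicate 4 and -0.05 or more on the other 7 arrays. Leaving out the 3 arrays leaves Th2 replicate 1 as the only Th2 sample, and values without them stand beside the results that moved most.

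The members covered a wide range of levels. By class medians, the small RNAs differed more between samples of 1 group than the measured Snhg genes did. Levels were read from different probe sets and only describe the array signal. The median of the members' means was 5.08 for box C/D snoRNAs, 5.31 for H/ACA snoRNAs, 4.66 for scaRNAs and 6.75 for host genes, beside 3.55 for all genes. Only 15 of 93 members were below the median of all genes. The highest means belonged to Snord104 (10.17), Snhg6 (9.94), Snord49b (9.78) and Snora33 (9.70), and the lowest to Snord90 (2.57), Snhg14 (2.62) and Snora2b (2.66). The median SD within groups was 0.54 for box C/D snoRNAs, 0.44 for H/ACA snoRNAs and 0.55 for scaRNAs, and 0.26 for both host genes and all genes. Among genes with a mean of at least 5 it was 0.58 for box C/D snoRNAs, 0.59 for H/ACA snoRNAs, 0.32 for host genes and 0.34 for all such genes.

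In Th2 samples most small RNAs and host genes had higher means than in Th0 samples, but no member passed the test. The mean was higher for 82 of 93 members (88.2%), beside 47.7% of all genes. This held for 41 of 47 box C/D snoRNAs, 23 of 26 H/ACA snoRNAs, 5 of 5 scaRNAs and 13 of 15 host genes. Median differences were 0.65 for box C/D snoRNAs, 0.64 for H/ACA snoRNAs, 0.45 for scaRNAs and 0.28 for host genes, beside -0.01 for all genes. Without Th2 replicate 2 the box C/D median was 0.30 and the H/ACA median 0.37. Of the 93 members, 23 were more than 2-fold higher, as were 0.618% of all genes. The mean was higher for 60 of 93 members (64.5%, beside 46.15% of all genes) without the 3 arrays apart on the first component, and the medians were 0.34, 0.24, 0.19 and 0.0015 in the same order. T cell identity markers moved the other way with all arrays: 8 of 9 had lower means in Th2, with a median of -0.35, while without the 3 arrays 6 of 9 had higher means, with a median of 0.08. Their part in the members' differences was not tested.

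**Figure D1:**
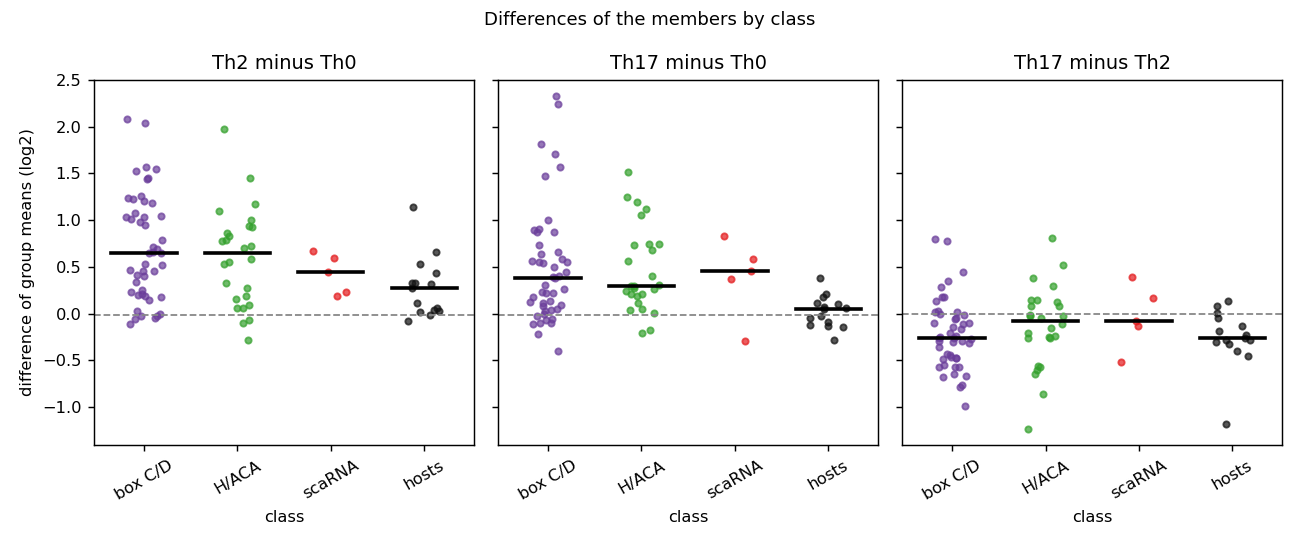
Differences of group means on the log2 scale (vertical axis) for each member (points) by class, in the 3 comparisons; the black line is the class median and the dashed line the median of all 22180 genes. Box C/D and H/ACA snoRNAs lie mostly above 0 against Th0, with medians of 0.65 and 0.64 in Th2 and 0.38 and 0.30 in Th17, while the host genes' median is 0.28 in Th2 and 0.05 in Th17.

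By limma's moderated test with Benjamini-Hochberg adjustment over all genes, 0 members and 0 of 22180 genes (0%) were called between Th2 and Th0 at an adjusted p under 0.05. The smallest adjusted p of a member was 0.767. At an unadjusted p under 0.05 from limma, 27 members were higher (29.0%, beside 3.36% of all genes) and 0 were lower (2.98% of all genes). They were 15 box C/D snoRNAs (31.9% of the class), 8 H/ACA snoRNAs (30.8%), 0 scaRNAs and 4 host genes (26.7%), and no test between the classes was made. For 23 members every Th2 value exceeded every Th0 value (24.7%, beside 4.48% of all genes), and for 0 members every Th2 value was lower (3.94% of all genes). The 27 became 15 without Th2 replicate 2, 16 without the 3 arrays with the most mast cell and basophil marker signal and 10 without the 3 arrays apart on the first component. Shares of all genes at an unadjusted p under 0.05 are not given for these settings. Without Th2 replicate 1, 431 of 22180 genes were called, and 9 of 93 members, all higher in Th2. These members were Snord83b, Snord92, Snord53, Snord87, Snord11, Snord15a, Snora7a, Snora41 and Snhg15.

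Among H/ACA snoRNAs, Snora33, encoded within the ribosomal protein gene Rps12, had the smallest p of all members. Its log2 level was 8.77, 9.11 and 9.41 on the Th0 arrays, 10.27, 9.93 and 10.10 on the Th2 arrays and 9.86, 9.69, 9.80 and 10.03 on the Th17 arrays. All 7 polarised samples were above all 3 Th0 samples. The Th2 mean exceeded the Th0 mean by 1.00 (SE 0.19; limma adjusted p = 0.767), or 2.00-fold. Snora33 had 2 probe sets that name it alone, and only the one with the higher mean is shown. Over the alternative settings its difference ranged from 0.70 to 1.17 in Th2 and from 0.44 to 0.90 in Th17 against Th0.

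Snora75, an H/ACA snoRNA within Ncl, the gene of the nucleolar protein nucleolin, stood at 5.54, 7.03 and 6.86 in Th0, 8.13, 8.87 and 8.36 in Th2 and 6.69, 6.74, 7.23 and 8.24 in Th17. Th2 samples were above Th0 samples with no overlap, by 1.98 in the mean (SE 0.45; limma adjusted p = 0.767). Snord82, a box C/D snoRNA of the same host, read 4.56, 7.08 and 7.48 in Th0, 8.69, 8.54 and 8.12 in Th2 and 7.62, 7.71, 9.15 and 8.25 in Th17. Both polarised groups lay above Th0, whose replicate 1 was far below its other samples. The difference between Th2 and Th0 was 2.08 (SE 0.65; limma adjusted p = 0.767), and 1.17 without Th0 replicate 1.

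**Figure D2:**
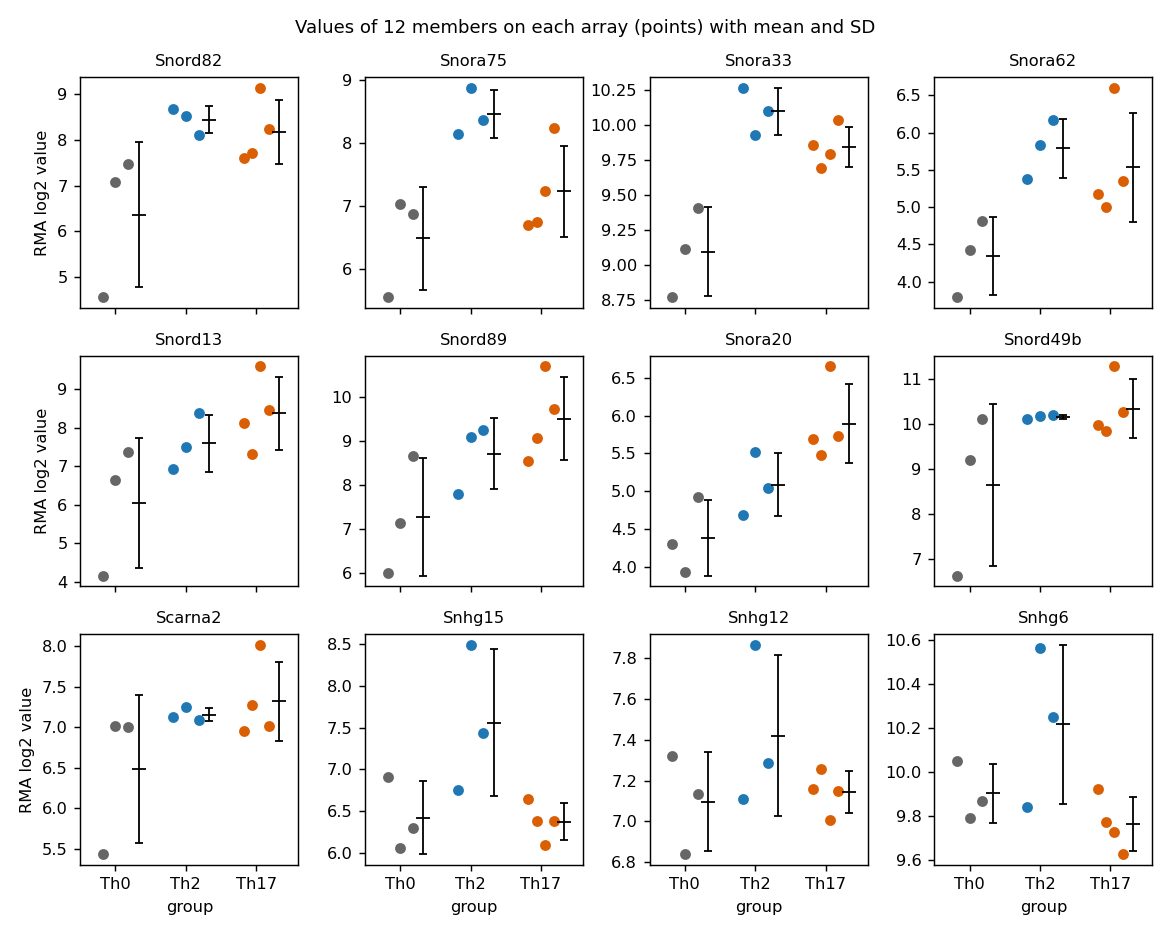
RMA log2 values (vertical axes, each with its own range) of 12 members on every array, as points by group, with the mean and SD of each group beside them. In the 3 panels Snord82, Snora33 and Snora62 every Th2 and Th17 point is above every Th0 point, and Th0 replicate 1 is the lowest point in every panel but Snora20, Snhg15, Snhg12 and Snhg6.

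Other box C/D snoRNAs with small p lay in hosts of several kinds. Snord92, within the ribosome assembly gene Wdr43, was at 3.28, 2.80 and 3.25 in Th0 and at 3.62, 4.41 and 4.39 in Th2, a difference of 1.03 at a low level (SE 0.23; limma adjusted p = 0.767). Snord87, within Snhg6, was at 5.57, 6.12 and 6.34 in Th0 and at 6.58, 7.55 and 7.62 in Th2, a difference of 1.24 (SE 0.31; limma adjusted p = 0.767). For both the groups did not overlap, and Th2 replicate 1 was the lowest Th2 sample. Its value alone exceeded the Th0 mean by 0.51 for Snord92 and by 0.57 for Snord87.

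Snord73b differed by 1.45, Snord11 by 1.04, Snord17 by 1.03 and Snord58b by 1.19, each with a limma adjusted p of 0.767 and no overlap. They lie within Rps3a1, Nop58, Snx5 and Rpl17. Snora62, the H/ACA snoRNA within Rpsa, was at 3.79, 4.42 and 4.82 in Th0 and at 5.38, 5.84 and 6.17 in Th2, again with no overlap (difference 1.45, SE 0.40, limma adjusted p = 0.767). Snora69, within Rpl39, differed by 0.87 and Snora7a, within Rpl32, by 0.92. With Th2 replicate 1 as the only Th2 sample, the difference was 0.08 for Snora7a, 0.46 for Snora69 and Snord11 and 0.60 for Snord17, but 1.49 for Snord73b, 1.36 for Snord58b and 1.04 for Snora62.

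Not all snoRNAs followed. Snora21, within the ribosomal protein gene Rpl23, had a lower mean in Th2 by 0.29 (limma adjusted p = 0.827), and its highest sample was Th0 replicate 1 at 8.01. Snora73a and Snora73b, which take part in the cleavage of the ribosomal RNA precursor, differed by -0.10 and -0.07. Snord22, needed for maturation of the small-subunit ribosomal RNA, differed by 0.20, and Snord118, needed for maturation of the large-subunit RNAs, by 0.41 (limma adjusted p = 0.918). Snord22 differed by 0.014 without Th2 replicate 2, and Snord118 by 1.10 without Th2 replicate 1, by -0.07 without Th2 replicate 3 and by -0.97 with Th2 replicate 1 alone. The 5 scaRNAs differed by 0.19 to 0.67, none at an unadjusted p under 0.05. The median of the scaRNAs, 0.45, was 0.15 without Th0 replicate 1.

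Of the host genes, Snhg15 had the largest difference between Th2 and Th0. It read 6.91, 6.06 and 6.30 in Th0, 6.75, 8.49 and 7.44 in Th2 and 6.64, 6.38, 6.10 and 6.38 in Th17. Only Th2 replicates 2 and 3 stood above the other samples, and Th2 replicate 1 was below Th0 replicate 1. The difference was 1.14 (SE 0.38; limma adjusted p = 0.767), 1.54 without Th2 replicate 1, 0.67 without Th2 replicate 2 and 0.33 with Th2 replicate 1 as the only Th2 sample.

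Snhg20 differed by 0.66, Snhg4 by 0.53 and Snhg1, the host of Snord22, by 0.43, with limma adjusted p of 0.767, 0.787 and 0.767. For Snhg20 and Snhg1 the groups did not overlap. Snhg20 was at 6.77, 6.57 and 6.14 in Th0 and at 6.99, 7.61 and 6.85 in Th2, and its difference was 0.43 without Th2 replicate 2. With Th2 replicate 1 alone, Snhg4 differed by -0.02 and Snhg1 by 0.08. The other 11 host genes differed by -0.08 to 0.33. The hosts' median of 0.28 was 0.45 without Th2 replicate 1, 0.10 without Th2 replicate 2 and 0.0015 without the 3 arrays apart on the first component.

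In Th17 samples the small RNAs again had mostly higher means than in Th0 samples, while host genes were split. The mean was higher for 38 of 47 box C/D snoRNAs, 24 of 26 H/ACA snoRNAs, 4 of 5 scaRNAs and 8 of 15 host genes, 74 of 93 in all (79.6%, beside 46.8% of all genes). Median differences were 0.38 for box C/D snoRNAs, 0.30 for H/ACA snoRNAs, 0.45 for scaRNAs and 0.05 for host genes, beside -0.02 for all genes. This comparison uses the same 3 Th0 arrays as that of Th2 with Th0, so the values of both are set side by side and not compared.

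No member was called between Th17 and Th0 by limma, with a smallest adjusted p of 0.216, whereas 23 of all genes (0.104%) were. At an unadjusted p under 0.05, 18 members were higher (19.4%, beside 2.5% of all genes) and 0 lower (2.67% of all genes). They were 10 box C/D snoRNAs, 7 H/ACA snoRNAs and 1 scaRNA. The Th17 values lay above the Th0 values with no overlap for 17 members (18.3%, beside 3.22% of all genes) and below for 0 (4.35% of all genes). The 18 became 6 without Th0 replicate 1, 10 without Th17 replicate 3 and 5 without the 3 arrays with the most mast cell and basophil marker signal. Shares of all genes are not given for these settings. Without Th17 replicate 3 the box C/D median was 0.24 and the scaRNA median 0.22, and without Th0 replicate 1 the scaRNA median was 0.12.

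Snora20, an H/ACA snoRNA within the chaperonin gene Tcp1, had the smallest adjusted p. It stood at 4.30, 3.92 and 4.92 in Th0, 4.69, 5.52 and 5.04 in Th2 and 5.69, 5.48, 6.66 and 5.73 in Th17. All Th17 samples were above all Th0 samples, and the means differed by 1.51 (SE 0.32; limma adjusted p = 0.216). Th2 and Th0 differed by 0.70, with overlap, and by 0.31 with Th2 replicate 1 alone.

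Snord13, a box C/D RNA that guides acetylation of the small-subunit ribosomal RNA, had the widest range of all members. Its values were 4.16, 6.63 and 7.37 in Th0, 6.92, 7.49 and 8.37 in Th2 and 8.13, 7.32, 9.60 and 8.45 in Th17. Th0 replicate 1 was more than 2 units below all other samples and Th17 replicate 3 was the highest. Th17 and Th0 differed by 2.32 (SE 0.72; limma adjusted p = 0.672), with overlap, and by 1.38 without Th0 replicate 1.

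Snord89 was at 6.01, 7.15 and 8.66 in Th0, 7.80, 9.09 and 9.26 in Th2 and 8.54, 9.06, 10.70 and 9.73 in Th17. The lowest and the highest sample were the same as for Snord13, and Th17 and Th0 differed by 2.24 (SE 0.64; limma adjusted p = 0.604), and by 1.23 without the 3 arrays with the most mast cell and basophil marker signal. Snord13 and Snord89, with Snord118 and Scarna2, were the only 4 of the 78 small RNAs that lie within no gene of the RefSeq table.

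Further differences between Th17 and Th0 were 1.81 for Snord82, 1.47 for Snord16a, 1.19 for Snora62, 0.89 for Snord52 and 0.75 for Snora33, with no overlap for any of the 5. Without Th0 replicate 1, which was the lowest sample of both, Snord82 differed by 0.91 and Snord16a by 0.75. Snord52 differed by 0.56 without Th17 replicate 3. Without the 3 arrays with the most mast cell and basophil marker signal, Snord82 differed by 0.66, Snora62 by 0.65 and Snora16a by 0.55. Snora44 and Snora16a, both within Snhg12, differed by 1.24 and 1.06, with overlap. Scarna2, which guides modification of a spliceosomal RNA, was at 5.43, 7.02 and 7.0 in Th0, 7.13, 7.25 and 7.09 in Th2 and 6.96, 7.28, 8.02 and 7.02 in Th17. Apart from Th0 replicate 1 and Th17 replicate 3, its samples lay between 6.96 and 7.28. Its difference of 0.83 between Th17 and Th0 had a limma adjusted p of 0.962. It was 0.31 without Th0 replicate 1 and -0.02 without the 3 arrays with the most mast cell and basophil marker signal. Host genes differed by -0.28 (Snhg10) to 0.38 (Snhg20), none at an unadjusted p under 0.05.

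Between the 2 polarised groups, most members had lower means in Th17 than in Th2 samples. The mean was lower in Th17 for 68 of 93 members and higher for 25, while 51.6% of all genes were lower. Median differences, Th17 minus Th2, were -0.26 for box C/D snoRNAs, -0.08 for H/ACA snoRNAs, -0.07 for scaRNAs and -0.26 for host genes, beside -0.01 for all genes. No member was called by limma, with a smallest adjusted p of 0.532, and 17 of all genes (0.0766%) were. At an unadjusted p under 0.05, 8 members were lower and 1 was higher in Th17, beside 3.07% and 3.18% of all genes. Th17 lay below Th2 with no overlap for 2 members, Snhg15 and Snora69 (3% of all genes), and above it for 0 (2.6% of all genes).

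These counts turned on the Th2 samples. For the settings below, shares of all genes at an unadjusted p under 0.05 or with a higher mean are not given. Without Th2 replicate 1, 22 of 93 members were lower at an unadjusted p under 0.05. In that setting limma called 298 of 22180 genes, of them 3 members lower in Th17: Snord53, Snhg15 and Snord92. Without Th2 replicate 2, 2 members were lower at an unadjusted p under 0.05, and 41 had a higher mean in Th17. The medians were then -0.06 for box C/D snoRNAs, 0.05 for H/ACA snoRNAs and -0.05 for host genes. Without the 3 arrays apart on the first component, 61 members had a higher mean in Th17, and the class medians were 0.11, 0.15 and 0.08.

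The differences with the smallest p were those of Snhg15 (-1.18, SE 0.35, limma adjusted p = 0.532), Snora69 (-0.86, limma adjusted p = 0.578) and Snord92 (-0.65, limma adjusted p = 0.608). Snora75 differed by -1.23 (SE 0.43, limma adjusted p = 0.65), and only Th17 replicate 4 reached the Th2 values. Snord87 differed by -0.79 and its host Snhg6 by -0.46 (limma adjusted p = 0.693). Snora20 was the 1 member with a higher mean in Th17 at an unadjusted p under 0.05, by 0.81 (limma adjusted p = 0.714), and the 2 groups overlapped. Without the 3 arrays apart on the first component, Snhg15 differed by -0.38, Snora69 by -0.33, Snord92 by -0.08, Snord87 by -0.13, Snhg6 by -0.03 and Snora20 by 1.25, while Snora75 stayed at -1.24.

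Single arrays accounted for the extremes of many small RNAs. Of the 78 small RNAs, 35 (44.9%) had their lowest value of the 10 arrays on Th0 replicate 1, beside 9.99% of all genes. They were 21 box C/D snoRNAs, 10 H/ACA snoRNAs and 4 of 5 scaRNAs. The highest value fell on Th2 replicate 2 for 28 small RNAs (35.9%, beside 12.1% of all genes) and on Th17 replicate 3 for 21 (26.9%, beside 6.48% of all genes). Host genes differed from this: 9 of 15 (60%) were highest on Th2 replicate 2, 1 was lowest on Th0 replicate 1 and 0 were highest on Th17 replicate 3, where 4 were lowest.

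Each member's deviation from its own mean showed the same arrays. The median deviation of the 78 small RNAs was -0.52 on Th0 replicate 1, -0.20 and -0.21 on the other Th0 arrays, -0.08, 0.56 and 0.20 on the Th2 arrays and between -0.03 and 0.13 on the Th17 arrays. That of host genes was -0.01 on Th0 replicate 1, 0.56 on Th2 replicate 2 and between -0.12 and 0.11 on the other 8 arrays. Th0 replicate 1 and Th17 replicate 3, the arrays with the most extreme scaRNA values (-1.04 and 0.88), were both high in basophil and mast cell markers. So was Th17 replicate 2, where the scaRNA median was 0.11 and that of all small RNAs 0.0023. Cpa3, a mast cell protease, was at 10.74 on Th0 replicate 1 and at 9.28 and 9.35 on Th17 replicates 2 and 3, but at 3.30 to 6.86 on the other 7 arrays. The part of such cells in the members' values was not tested.

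**Figure D3:**
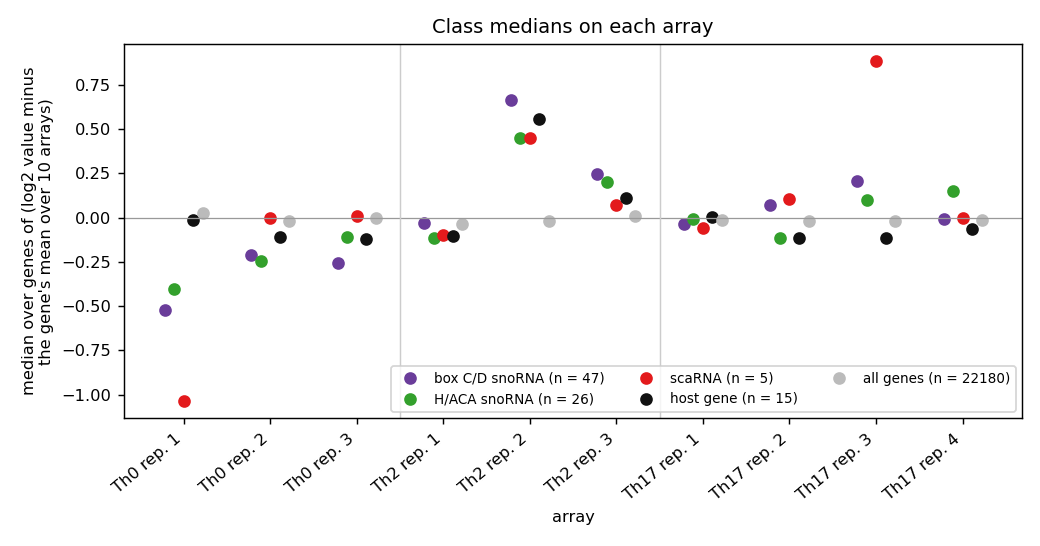
For each array (horizontal axis), the median over the genes of a class of the log2 value minus the gene's own mean over the 10 arrays. The small RNA classes are lowest on Th0 replicate 1, where host genes are at -0.01, and all 4 classes are at 0.45 or more on Th2 replicate 2, while the median of all 22180 genes lies between -0.03 and 0.03.

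Snord49b shows how far 1 sample could set a group's spread. It was at 6.62, 9.20 and 10.11 in Th0, at 10.12, 10.18 and 10.20 in Th2 and at 9.98, 9.84, 11.29 and 10.27 in Th17. The SD was 1.81 in Th0 (n = 3) and 0.04 in Th2 (n = 3). Its difference of 1.52 between Th2 and Th0 (limma adjusted p = 0.792) was 0.51 without Th0 replicate 1. Snord1b, within Snhg16, ran from 2.66 on Th0 replicate 1 to 7.62 on Th17 replicate 3, and Snord16a, within Rpl4, from 3.49 on Th0 replicate 1 to 7.38 on Th2 replicate 2.

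By position in the RefSeq table, which gives no strand, 74 of the 78 small RNAs lay within 60 genes, and the shortest gene around a small RNA was taken as its host. Of them, 18 lay in 16 ribosomal protein genes and 13 in an Snhg gene or Gas5. The containing gene was measured for 60 small RNAs, in 46 genes. Medians below are over the 60 small RNAs and over the 46 genes, and larger means the higher value with its sign. The small RNA's difference was larger than that of its containing gene for 47 of 60 pairs between Th2 and Th0, with medians of 0.70 and 0.16. Between Th17 and Th0 it was larger for 50 of 60, with medians of 0.38 and 0.04. Between Th17 and Th2 it was larger for 29 of 60, with medians of -0.25 and -0.16. The counts were 38, 48 and 36 of 60 in the same order without the 3 arrays apart on the first component. Small RNAs of 1 gene share their host value, so the pairs are not independent. Some containing genes were dim, such as Htr2c (mean 2.61), Snhg9 (3.19) and Rpl17 (3.54), and differences of dim probe sets are compressed.

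**Figure D4:**
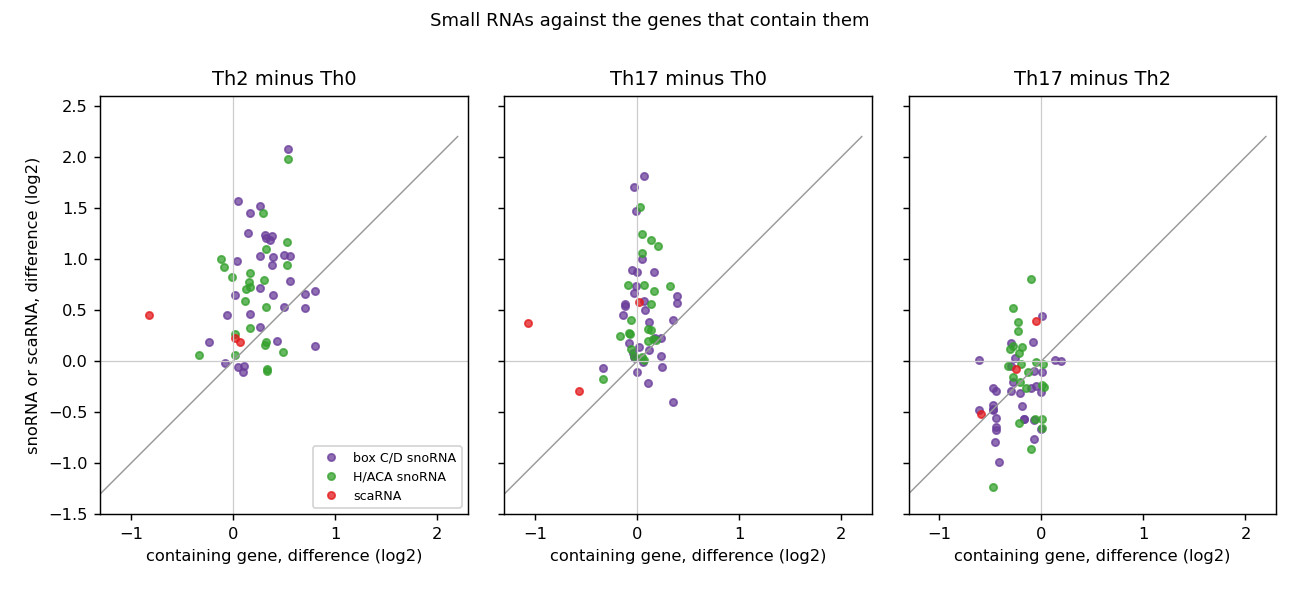
Difference of group means (log2) of each of 60 small RNAs (vertical axis) against that of the gene that contains it (horizontal axis), in the 3 comparisons; the diagonal marks equal differences. Against Th0 most points lie above the diagonal (47 and 50 of 60), and the containing genes stay between -1.07 and 0.80, while small RNAs reach 2.08.

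Differences of several hosts in the translation machinery were small beside those of their snoRNAs. Rps12, with a mean of 11.84 over the 10 arrays, differed by -0.12 between Th2 and Th0, beside 1.00 for its Snora33. Rpl4 differed by 0.05 (-0.01 after a further quantile normalization) beside 1.57 for Snord16a, Rpsa by 0.29 beside 1.45 for Snora62, and Eef1b2, a translation elongation factor gene, by -0.01 beside 0.83 for Snora41. Ncl itself differed by 0.53 between Th2 and Th0 (limma adjusted p = 0.767), beside 1.98 for Snora75 and 2.08 for Snord82. Without Th0 replicate 1 the values were 0.02 for Rpl4, 0.85 for Snord16a and 0.08 for Rpsa. Snora41 differed by 0.48 without Th2 replicate 3, and with Th2 replicate 1 as the only Th2 sample by -0.07, Rpsa then by 0.52 and Ncl by 0.21. Between Th17 and Th0, Tcp1 differed by 0.03 beside 1.51 for Snora20. Hosts named here were bright: beside Rps12, Rpl4 had a mean of 11.47, Eef1b2 of 10.86 and Rpsa of 10.47, where the highest of all genes was 12.5. The SD within groups was 0.03 for Rpl4, the lowest of all genes, 0.07 for Eef1b2, 0.16 for Rps12 and 0.23 for Rpsa. Whether probe sets this bright could show a difference was not tested.

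Small RNAs of 1 host could also differ from each other. Snhg12 holds 4 measured snoRNAs, and between Th2 and Th0 it differed by 0.32, Snora61 by 0.19, Snora16a by 0.53, Snora44 by 1.09 and Snord99 by 1.20. With Th2 replicate 1 as the only Th2 sample these were 0.01, -0.06, 0.17, 0.54 and 2.29. Snora61 kept within 4.97 and 5.47 on all 10 arrays, while Snora44 ran from 5.87 to 8.76. Within the noncoding gene 2410006H16Rik, Snord65 differed by 0.33, Snord49a by 0.71 and Snord49b by 1.52, and the gene by 0.27. Without Th2 replicate 2, Snord65 differed by 0.21, Snord49a by 0.29, Snord49b by 1.51 and the gene by 0.07. Snhg3 differed by 0.33, above both its snoRNAs, Snora73a and Snora73b, and by 0.14 without Th2 replicate 2. In 10 of the 11 genes with several measured small RNAs all of these had higher means in Th2 than in Th0, and Snhg3 was the exception.

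Of the proteins that form snoRNA particles, none was called by limma with all arrays at equal weight. The 3 measured box C/D core proteins, Nop56, Nop58 and Snu13, had higher means in Th2 than in Th0, by 0.39, 0.50 and 0.41. They were high on Th2 replicates 2 and 3, with a median deviation from their own means of 0.67 and 0.44, while all 3 were below their own means on Th2 replicate 1 (-0.09). Without Th2 replicate 2 the differences were 0.20, 0.31 and 0.26, and with Th2 replicate 1 alone 0.02, 0.08 and -0.07. Between Th17 and Th2 they differed by -0.41, -0.61 and -0.59 (-0.03, -0.22 and -0.12 without the 3 arrays apart on the first component), and the methyltransferase gene Fbl was not analysed here. The 4 H/ACA core proteins were higher in Th2 than in Th0 by a median of 0.41, and by 0.20 without Th2 replicate 2. Dkc1, the pseudouridine synthase, was at 6.96, 7.0 and 7.46 in Th0, 7.48, 8.19 and 7.97 in Th2 and 7.42, 7.04, 7.0 and 6.85 in Th17. Every Th2 value of Dkc1 was above all other samples, with differences of 0.74 from Th0 (limma adjusted p = 0.767) and -0.80 between Th17 and Th2 (limma adjusted p = 0.405). The latter was called in 2 of 20 alternative settings, with array weights and without Th2 replicate 1, over a range of limma adjusted p from 0.0384 to 0.9999. The differences of Dkc1 were 0.34 and -0.33 without the 3 arrays apart on the first component.

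Genes of ribosomal RNA synthesis and ribosome assembly had higher means in Th2 than in Th0 for 36 of 38 (94.7%, beside 47.7% of all genes), with a median of 0.57, and 18 of them were higher at an unadjusted p under 0.05 (47.4%, beside 3.36% of all genes). Their median deviation from their own means was 0.88 and 0.33 on Th2 replicates 2 and 3 but -0.13 on Th2 replicate 1, as on Th0 replicate 3, and -0.36 and -0.19 on Th0 replicates 1 and 2. The 18 became 5 without Th2 replicate 2, with a median of 0.31, and 1 with Th2 replicate 1 as the only Th2 sample, with 28 of 38 higher and a median of 0.07. In Th17 28 of 38 were higher than in Th0 (73.7%, beside 46.8% of all genes), with a median of 0.11.

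Rrp9, a protein of the U3 snoRNA particle, differed by 1.08 between Th2 and Th0 (limma adjusted p = 0.767), by 0.69 without Th2 replicate 2 and by 1.33 without Th2 replicate 1, where limma called it (adjusted p = 0.0349, over a range of 0.0349 to 0.9984 in the alternatives). Myc, an activator of ribosome production, differed by 0.50 (limma adjusted p = 0.865). It was at 8.55, 8.18 and 7.80 in Th0 and at 7.64, 9.63 and 8.77 in Th2, so Th2 replicate 1 was below every Th0 sample. The difference of Myc was 0.03 without Th2 replicate 2 and 1.02 without Th2 replicate 1.

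The other lists lay closer to the 47.7% of all genes with a higher mean in Th2. The 14 assembly and modification factors had a median of 0.17 between Th2 and Th0, with 11 higher (78.6%), and 49 ribosomal protein genes one of 0.10, with 33 higher. Factors of nonsense-mediated decay, which degrades many spliced host RNAs, were higher for 5 of 7 (71.4%), with a median of 0.13. Of the 11 measured exosome genes, whose products trim snoRNA ends, 7 were higher (63.6%), with a median of 0.16. At an unadjusted p under 0.05, 1 ribosomal protein gene was higher and 0 genes of the other 3 lists, while 1 assembly and modification factor was lower. Th2 values lay above Th0 values with no overlap for 7 ribosomal protein genes (14.3%, beside 4.48% of all genes) and 1 exosome gene (9.09%). They lay below for 1 ribosomal protein gene, 1 assembly and modification factor and 1 decay factor, beside 3.94% of all genes. Without Th2 replicate 2 the 4 medians were 0.04, 0.07, -0.03 and 0.10.

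Other structured RNAs outside the name rule were read as a reference. Of 12 such genes, 9 had higher means in Th2 than in Th0 (75%, beside 47.7% of all genes) and 9 in Th17 than in Th0 (75%, beside 46.8%). The medians were 0.20 and 0.30. At an unadjusted p under 0.05 from limma, 4 were higher in Th2 (33.3%, beside 3.36% of all genes) and 3 in Th17 (25%, beside 2.5%), and 0 were lower. Values lay above Th0 with no overlap for 5 in Th2 (41.7%, beside 4.48% of all genes) and 3 in Th17 (25%, beside 3.22%). They lay below Th0 for 0 in Th2 and 1 in Th17. Rny3, one of the Y RNAs, was at 6.10, 7.03 and 6.77 in Th0, 8.87, 8.46 and 8.18 in Th2 and 8.10, 8.54, 9.41 and 8.72 in Th17. It was the only one of the 12 that limma called, in Th17 against Th0 (difference 2.06, adjusted p = 0.0442), and the call held in 6 of 20 alternative settings, with adjusted p from 0.0237 to 0.704. Rpph1, the RNA of ribonuclease P, was at 6.74 on Th0 replicate 1 and at 9.04 to 10.80 on the other arrays. Rnu3a, a U3 snoRNA, was at 6.12 on Th0 replicate 1 and at 7.67 to 11.57 elsewhere. The long nuclear RNA Malat1 kept within 10.20 and 10.53. Precursor genes of microRNAs, a list added after the values were seen, had medians of 0.01 in Th2 and -0.02 in Th17 against Th0 over 483 genes. They were dim, with a median level of 2.755 to 2.975 on the arrays, beside 3.479 to 3.68 for all genes. Differences of such dim probe sets are compressed, so these medians say little about the other small RNAs.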

How the data were processed

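Total RNA of 10 samples was purified on columns that retain small RNA, with DNase, then amplified with a whole-transcriptome kit and labelled with biotin, per the labels' protocols. The deposited values are log2 values that the authors made by RMA in Affymetrix Expression Console 1.3.0.187, per the submitters' processing notes. RMA is meant to make the arrays' distributions alike, so a shift of all genes in the cells cannot be read from the values. It also compresses differences of dim probe sets. The deposited distributions were still not equal in width. The distance between the lower and upper quartile was largest for Th2 replicate 1 (2.41). It was smallest for Th2 replicate 3 (1.95), followed by Th0 replicate 1 (2.08), Th17 replicate 4 (2.09) and Th2 replicate 2 (2.15). What set these widths apart was not tested. How an amplified signal divides between a mature snoRNA and its precursor, and the build of the probe sets, were not given in the sources used here.

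The table held 41345 probe sets, of which 23521 named 1 gene, 1814 several and 16010 none in the probe table. Of several probe sets for a gene, as 5 members had, that with the highest mean was used, which left 22180 genes. All 93 members matched the RefSeq table of GRCm38.p6 by Entrez ID. Containing genes were found by position there, without strand.

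Groups and replicate numbers follow the titles. They are titled biological replicates, but nothing given ties them to separate animals, so p-values reflect only the spread among the samples. The closest pair of arrays differed by a root mean square of 0.331, and none was counted as a duplicate. limma 3.58.1 in R 4.3.3 fitted 3 group means to all 10 arrays (7 residual degrees of freedom), with two-sided p-values adjusted by Benjamini-Hochberg over all genes of a contrast. Calls needed an adjusted p under 0.05, and no low values were filtered. The number of arrays limits the precision. The procedure was also run on simulated data for Th17 against Th0. It called 56 of 100 genes changed by 1 log2 unit and 90 of 100 changed by 2. It also wrongly called 10 genes that were not changed. The simulated noise was independent between genes, so differences that many genes share on an array were not covered.

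The members and the gene lists were chosen with earlier results of these data known. Named genes are the Snhg genes, the members with the smallest p per class and contrast, the highest or most variable members, and those within a named host. For other lists the genes with the smallest p and the core particle proteins are named, and not all of these are printed. Snord22 and Snord118 were named for their known roles, and Snora21, Rpl4, Eef1b2, Rnu3a and Malat1 after their values were seen. Alternatives were array weights, a further quantile normalization, a trended robust variance, a minimum mean of 5, the mean of all probe sets, 2 groups at a time, replicate blocks and arrays left out.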

Additional observations from a re-analysis of the deposited data

Results flagged for a closer look

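In 4 of the 93 members, 1 of the 4 Th17 arrays stood apart from the other 3 by Dixon's criterion at the 95% level, and chance alone marks about 1 group in 20. The H/ACA snoRNA Snora28, within Eif5, was at 7.12 on Th17 replicate 3 and at 5.66 to 5.90 on the others. The box C/D snoRNA Snord104 was at 9.50 on Th17 replicate 4 and at 10.29 to 10.41 on the others. The box C/D snoRNA Snord35b was at 3.25 on Th17 replicate 4 and at 5.95 to 6.22 on the others. The host gene Snhg4 was at 7.67 on Th17 replicate 3 and at 8.19 to 8.26 on the others. The criterion was not applied to the groups of 3 arrays, so a Th0 or Th2 array that stands apart is not listed here.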

How the results depend on the processing

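Of the 1433 values that the alternatives gave for the 72 differences named above, 1381 kept their direction and their side of the adjusted threshold, 14 lost a call (all of them Rny3 in Th17 against Th0), 14 gained one and 24 changed sign. The cause was not tested for any of the changes given here, except that a minimum mean leaves fewer genes to count. The few arrays limit all counts, and dim members have compressed differences. Shares of all genes at an unadjusted p under 0.05 or with a higher mean are not given in this section. Its counts of members therefore have no background beside them.

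With array weights, members higher at an unadjusted p under 0.05 in Th2 against Th0 were 41, with medians of 1.03 for box C/D snoRNAs and 0.48 for host genes. Calls over all genes were 60 in Th17 against Th0 and 330 in Th17 against Th2, of which 2 were members (Snhg15 and Snora75, both lower in Th17), with 0 members higher and 31 lower at an unadjusted p under 0.05. Snora73a and Eef1b2 then differed by 0.0037 and 0.052 between Th2 and Th0, and Tcp1 by -0.030 between Th17 and Th0. With a minimum mean of 5, only 55 members were left to count. Of these 55, members with a higher mean were 50 in Th2 and 47 in Th17 against Th0 and 15 in Th17 against Th2. Those higher at an unadjusted p under 0.05 were 16 and 11 against Th0, 4 were lower in Th17 against Th2, the H/ACA median in Th17 against Th0 was 0.56, and 10 genes were called in Th17 against Th2. The mean of all probe sets put Rps12 at 0.019, and a further quantile normalization put Rpl4 at -0.012, both in Th2 against Th0.

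Without the 3 arrays apart on the first component, Th2 minus Th0 gave 2 calls over all genes, 10 members higher and 1 lower at an unadjusted p under 0.05, and medians of 0.34 for box C/D snoRNAs, 0.24 for H/ACA snoRNAs and 0.0015 for host genes. Snord118 was then at -0.97, Snhg4 at -0.0155, Snora41 at -0.066, Snora61 at -0.056, Snord65 at -0.0556, Snu13 at -0.0675 and Myc at -0.54. The lone Th2 array was assumed to vary like the other groups. Th17 minus Th0 gave 46 calls, and Th17 minus Th2 gave 61 members with a higher mean, 5 higher and 3 lower at an unadjusted p under 0.05, and medians of 0.11, 0.15 and 0.082 for box C/D snoRNAs, H/ACA snoRNAs and host genes. Without the 3 arrays with the most mast cell and basophil marker signal, members higher at an unadjusted p under 0.05 were 16 in Th2 and 5 in Th17 against Th0 and 2 in Th17 against Th2. Calls were 3 in Th17 against Th0 and 6 in Th17 against Th2, the scaRNA median in Th17 against Th0 was -0.11, Scarna2 and Tcp1 were at -0.021 and -0.062 there, and Eef1b2 was at 0.023 in Th2 against Th0.

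Leaving out 1 array at a time, genes called ranged from 0 to 431 in Th2 against Th0, 2 to 36 in Th17 against Th0 and 3 to 298 in Th17 against Th2, and members called from 0 to 9, 0 to 0 and 0 to 3. Members higher at an unadjusted p under 0.05 ranged from 15 to 40, 6 to 22 and 0 to 3, and members lower from 0 to 1, 0 to 1 and 2 to 22. Members with a higher mean in Th17 than in Th2 ranged from 23 to 41. Medians of Th2 minus Th0 ranged from 0.30 to 0.85 for box C/D snoRNAs and from 0.37 to 0.74 for H/ACA snoRNAs, and that of host genes in Th17 minus Th2 from -0.38 to -0.054. Differences that changed sign ranged from -0.050 to 0.029 for Eef1b2, -0.24 to 0.055 for Snora73a, -0.14 to 0.029 for Snora73b and -0.067 to 1.10 for Snord118 in Th2 against Th0, and from -0.12 to 0.13 for Tcp1 in Th17 against Th0.

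The replicate numbers were not shown to pair samples: deviations of same-numbered samples correlated between -0.31 and 0.30 by the titles' numbers and between -0.29 and 0.49 by the descriptions', the highest being number 4 in Th2 and Th17, and 1 of 10 arrays correlated best with its own title number. With the titles' number as a replicate block, 8 genes were called in Th17 against Th0 and 11 in Th17 against Th2, with 3 members higher at an unadjusted p under 0.05 in the latter. With the descriptions' number, in which Th2 replicate 3 carries a 4, the box C/D median in Th2 against Th0 was 0.90. This replicate block gave 5 calls in each comparison of Th17, and 1 member was called, Snord89, at 2.18 against Th0 (limma adjusted p = 0.0134).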
